A study of Mus musculus with 6 samples.

Results

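The genes described here encode collagens, matrix metalloproteinases (MMPs), tissue inhibitors of metalloproteinases (TIMPs) and proteinases of the ADAMTS family, which together build, cut and protect the extracellular matrix. They were taken by name: every protein-coding gene of the count table whose symbol is a numbered Col, Mmp, Timp or Adamts gene. This gave 89 of the 54532 genes in the table, made up of 44 collagen, 22 MMP, 4 TIMP and 19 ADAMTS genes. RNA was sequenced from the ischemic liver lobe of C57bl/6 mice, which had 1 h of ischemia followed by 12 h of reperfusion, a procedure in which blood flow to some lobes is stopped and later restored. The mutant mice lack interferon regulatory factor 8 (IRF8) in hepatocytes (IRF8-cKO, libraries IRF8-cKO-71, IRF8-cKO-88, IRF8-cKO-106), and the others are wild type (WT, libraries WT-14, WT-44, WT-77). Values per library are given in these orders. All 6 livers were injured, so no value is a change from uninjured liver. The sources used here name no Cre driver, allele, age or sex. Nor do the labels state that each library is its own animal, so p-values cover the spread among these libraries only, which may be technical.

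Collagens form fibrils, basement membrane networks and microfibrils, and in liver the fibrillar chains are made mainly by hepatic stellate cells and portal fibroblasts. MMPs are zinc-dependent proteinases that cut collagens and other matrix proteins, TIMPs bind and block their active site, and ADAMTS proteinases trim procollagens or cut large proteoglycans. In injured liver TIMP1 is known as an early, inducible inhibitor, while collagen deposition belongs to later repair.

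The libraries held 14758237 to 16805830 counted reads, of which the 89 genes took 9546 to 16802 reads, or 0.0647% to 0.105%. Irf8 itself had 92, 109 and 90 reads in IRF8-cKO, against 152, 110 and 155 reads in WT. Its log2 fold change was -0.81 (SE 0.33, adjusted p = 0.174 in the edgeR test, not called), with all 3 IRF8-cKO libraries below WT in CPM. Reads summed over a gene cannot tell a deleted exon. The hepatocyte markers Alb, Apoa1, Ttr and Hnf4a were present in every library, and 8 of 8 hepatocyte markers could be tested with 0 called, the lowest p being that of Ttr (adjusted p = 0.129). Their summed level was 68400 to 95100 CPM (reads scaled to a common library total after a correction for composition) in IRF8-cKO and 92600 to 131000 CPM in WT. In bulk tissue, fewer cells of a type and less RNA per cell cannot be told apart.

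Timp1 fell in IRF8-cKO livers, and it was the 1 gene among the 45 tested members that passed the genome-wide test. The other 44 members of the 89 had too few reads to be tested, and 10 of these had 0 reads in all libraries. The called share was 1 of 45 members (2.22%), against 1.39% of all 13134 genes tested in either direction and 0.937% in the lower direction, so 1 call lies near the background. Members higher in IRF8-cKO numbered 0, where 0.449% of all genes tested were called higher. At an unadjusted p under 0.05 stood 10 of 45 members (22.2%), against 24.1% of all genes tested. In 9 of the 45 members (20%) every IRF8-cKO library lay below every WT library, against 14.5% of all genes tested. The opposite separation, every IRF8-cKO library above every WT library, occurred in 0 of 45 members, against 14.4% of all genes tested. The median log2 fold change was -0.40 over the 45 tested members and 0.03 over all genes tested, and 36 of the 45 were negative. With library totals alone as scaling, the median over all genes was 0.25 and that over members -0.10. Members that are high in 1 group alone pass a low-count filter more easily, so these counts describe the tested members and not all 89.

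**Figure D1:**
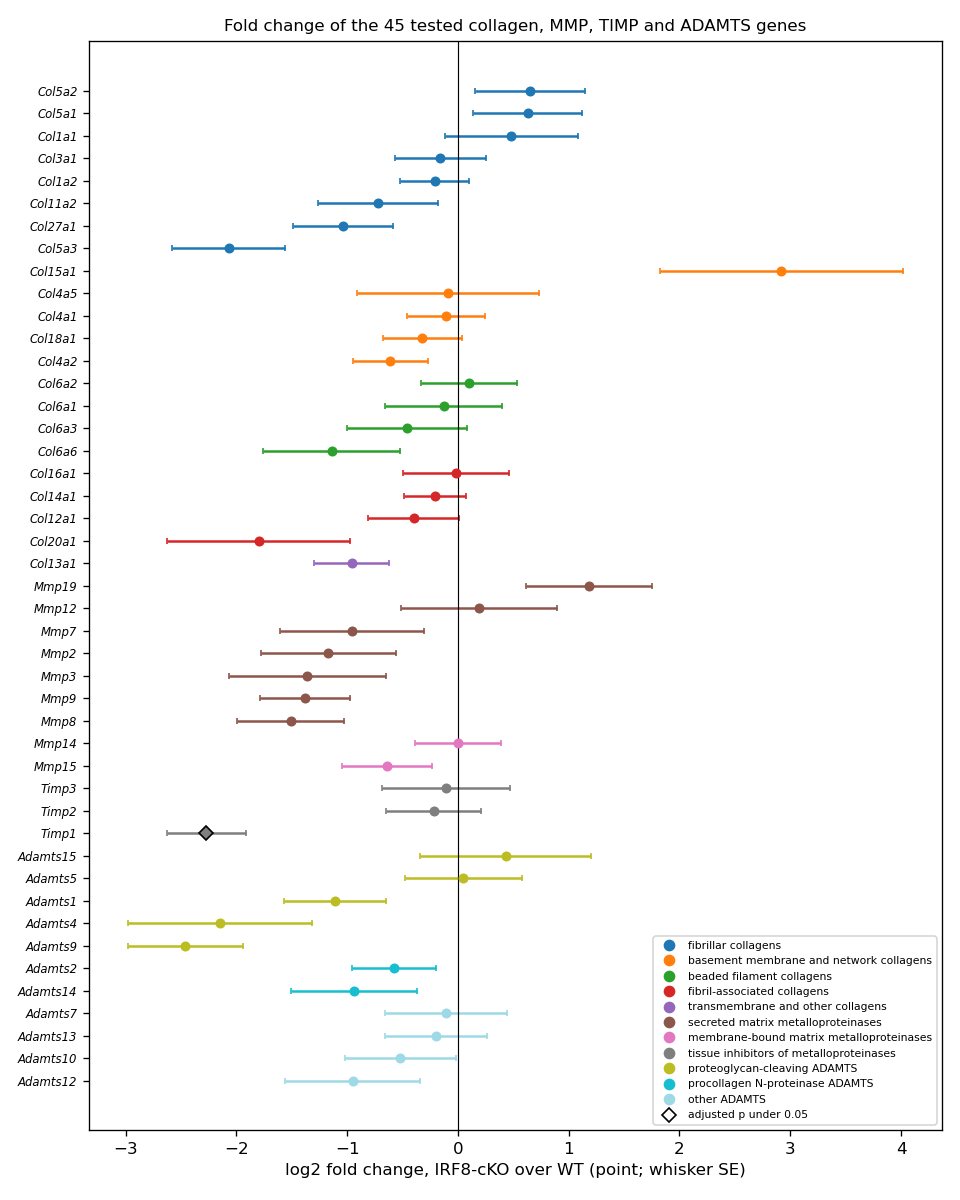
Log2 fold change (IRF8-cKO over WT, horizontal axis) of the 45 tested members, 1 row per gene, coloured by role, with whiskers for the SE. Timp1 at -2.27 (diamond) is the member that passed, most other points lie left of 0, and Col15a1 at 2.92 has the widest whisker.

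Summed over each family per length (RPKM, the CPM divided by gene length in kilobases), collagens stood at 81.6, 65.7 and 65.6 in IRF8-cKO, against 78.1, 84.0 and 102 in WT. MMP sums were 30.7, 32.3 and 36.1 RPKM in IRF8-cKO, against 43.3, 21.8 and 38.1 RPKM in WT. Both families overlapped between the groups. TIMP sums were 4.21, 7.29 and 7.55 RPKM in IRF8-cKO, against 17.6, 12.4 and 17.8 RPKM in WT, without overlap. ADAMTS sums were 4.60, 15.9 and 10.5 RPKM in IRF8-cKO, against 23.0, 17.7 and 28.4 RPKM in WT, also without overlap. A few genes carry these sums: Col18a1 made up 57.8% of the collagen sum, Mmp14 38.3% of the MMP sum, Timp1 55.3% of the TIMP sum and Adamts1 63.5% of the ADAMTS sum, as means over the 6 libraries. The TIMP sum divided by the MMP sum was 0.137, 0.225 and 0.209 in IRF8-cKO, against 0.406, 0.570 and 0.468 in WT. These ratios of RNA levels were given no test. Mean Timp1 was 2.36 RPKM of a mean TIMP sum of 6.35 in IRF8-cKO, and 11.4 of 15.9 in WT. Timp2 and Timp3 overlapped between the groups, so the TIMP sum and its ratio mostly restate Timp1.

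**Figure D2:**
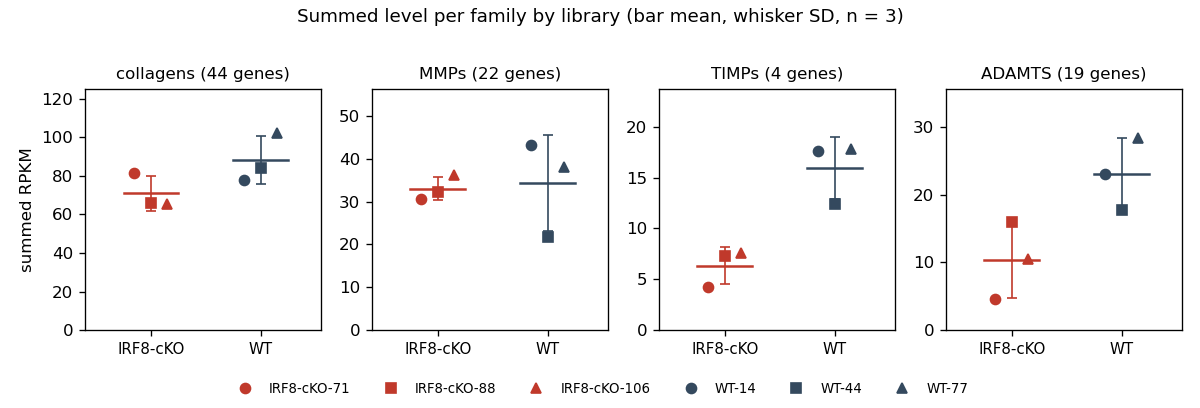
Summed RPKM of each family (vertical axis) in every library, IRF8-cKO left and WT right, with the mean as a bar and the SD as a whisker (n = 3 each). TIMP and ADAMTS sums separate the groups, while collagen and MMP sums overlap.

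Timp1 (ENSMUSG00000001131, chromosome X, 20870166 to 20874735, plus strand, mm10) encodes a secreted inhibitor of most MMPs. It stood at 1.54, 2.34 and 2.41 CPM in IRF8-cKO, against 11.5, 9.23 and 9.62 CPM in WT. The groups did not overlap, and the libraries of each group lay close together. The reads behind these values were 25, 38 and 52 in IRF8-cKO and 188, 107 and 145 in WT. Timp1 fell 4.81-fold, with 2.10 ± 0.483 CPM in IRF8-cKO and 10.1 ± 1.22 CPM in WT (SD, n = 3 each; log2 fold change -2.27, SE 0.36, edgeR adjusted p = 0.0339). The direction held in every alternative run, from -1.87 to -2.36. The call was lost with library totals alone (adjusted p = 0.0612), with a gene length correction (adjusted p = 0.0640), and without IRF8-cKO-106 (0.0732), WT-14 (0.0506), WT-44 (0.158) or WT-77 (0.169).

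The sequence around the start of Timp1 is shown because it is the member that passed. Bases -100 to -1 before the RefSeq gene start (chrX:20870066-20870165, plus strand, GRCm38.p6) held none of the letters searched, and bases 11 to 40 after it (chrX:20870176-20870205) held the AP-1 variant TGAGTAA, in capitals:
Timp1 before the start: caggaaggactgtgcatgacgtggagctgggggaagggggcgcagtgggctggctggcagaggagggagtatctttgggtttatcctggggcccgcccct
Timp1 after the start: tccagcggtgggtggaTGAGTAAtgcgtcc
AP-1 is the dimer of Fos and Jun proteins. TGAGTAA was added to the search after this window had been read, and on either strand it occurs in 2.68% of the 32851 RefSeq promoter windows (the stretch just before and after a gene start) and in 2.78% of the 72 windows of members.

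The other inhibitors did not pass, and their groups overlapped. Timp2, which also takes part in the activation of MMP2, stood at 7.94, 11.8 and 12.5 CPM in IRF8-cKO, against 11.5, 6.04 and 20 CPM in WT (log2 fold change -0.22, SE 0.43, adjusted p = 0.777). Timp3, an inhibitor bound to the matrix, stood at 3.45, 13.2 and 13.2 CPM in IRF8-cKO, against 13.3, 4.05 and 14.9 CPM in WT (log2 fold change -0.11, SE 0.58). Timp2 was lowest in WT-44 and Timp3 in IRF8-cKO-71, so low libraries occurred in both groups. A share of 21.3% of Timp3 exon bases lies opposite exons of Syn3, which had 11 reads in all. Timp4 had 5 reads in the 6 libraries and was not tested. Per length, Timp1 over Timp2 was 0.850, 0.873 and 0.845 in IRF8-cKO, against 4.39, 6.71 and 2.11 in WT, so that Timp1 was the more abundant of the pair in each WT library and the less abundant in each IRF8-cKO library.

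Among the ADAMTS proteinases that cut proteoglycans such as versican and aggrecan, 5 of 7 were tested and 0 passed, with a median log2 fold change of -1.11. Adamts9, which came closest, stood at 0.985, 4.99 and 2.41 CPM in IRF8-cKO, against 12.8, 14.2 and 19.0 CPM in WT, without overlap and with the lowest value in IRF8-cKO-71. Its log2 fold change of -2.46 (SE 0.52) was larger in size than that of Timp1 but had an adjusted p of 0.0531 in the edgeR test. It passed with upper-quartile factors (adjusted p = 0.0488), without a low-count filter (1.88e-06), in DESeq2 (0.000165), in limma-voom (0.0468), and without IRF8-cKO-88 (-3.15, adjusted p = 0.00595) or IRF8-cKO-71 (-2.05, adjusted p = 0.0493). Of these runs, DESeq2, the one without a filter and the one without IRF8-cKO-88 also called far more genes over all. Under the other alternatives Adamts9 did not pass, with an adjusted p of up to 0.214 without WT-77. Opposite-strand exons of A730049H05Rik cover 9.18% of the Adamts9 exon bases, and that gene had 24 reads.

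Adamts1, the most abundant ADAMTS gene here per length, is an early, inducible proteinase. It stood at 12.4, 54.9 and 40.5 CPM in IRF8-cKO, against 78.1, 62.7 and 92.6 CPM in WT. The groups did not overlap, yet IRF8-cKO-88 was close to WT-44, and the log2 fold change of -1.11 (SE 0.46, adjusted p = 0.184) did not pass. Adamts4, the classical aggrecanase, stood at 0.862, 11 and 2.22 CPM in IRF8-cKO, against 23.7, 9.66 and 28.9 CPM in WT. Here IRF8-cKO-88 lay above WT-44, the log2 fold change was -2.15 (SE 0.83, adjusted p = 0.167), and without IRF8-cKO-88 it was -3.72 (adjusted p = 0.00901). Adamts15 and Adamts5 had positive log2 fold changes of 0.43 (SE 0.77) and 0.05 (SE 0.53). Adamts15 reached 9.92 CPM in IRF8-cKO-88, against 0.801 and 2.45 CPM in IRF8-cKO-71 and IRF8-cKO-106 and 2.45, 2.41 and 4.84 CPM in WT. Adamts5 is the next gene to Adamts1, 53060 bases away on chromosome 16, and neither was called.

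The proximal promoter of Adamts1 (bases -100 to 20 around its start, chr16:85803094-85803213, minus strand, GRCm38.p6) is shown because it is the most abundant ADAMTS gene. Capitals mark the TATA box letters TATAAA, which begin at -32 and occur on either strand in 13.6% of all windows and 20.8% of members' windows:
Adamts1: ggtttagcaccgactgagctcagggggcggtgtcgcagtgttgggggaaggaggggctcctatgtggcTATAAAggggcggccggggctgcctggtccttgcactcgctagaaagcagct

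Of the remaining 12 ADAMTS genes 6 were tested and 0 passed. Adamts2, which removes the amino-terminal propeptide of fibrillar procollagens, stood at 3.33, 5.54 and 6.66 CPM in IRF8-cKO, against 8.26, 5.86 and 9.16 CPM in WT (log2 fold change -0.58, SE 0.38). Adamts14, of the same activity, was at -0.94 (SE 0.57). Adamts13, the von Willebrand factor-cleaving proteinase that liver stellate cells secrete, stood at 1.35, 1.42 and 1.67 CPM in IRF8-cKO, against 1.53, 1.29 and 2.26 CPM in WT (log2 fold change -0.20, SE 0.46). Adamts10, a fibrillin-binding member, was at -0.52 (SE 0.50), Adamts7 at -0.11 (SE 0.55) and Adamts12 at -0.95 (SE 0.61).

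**Figure D3:**
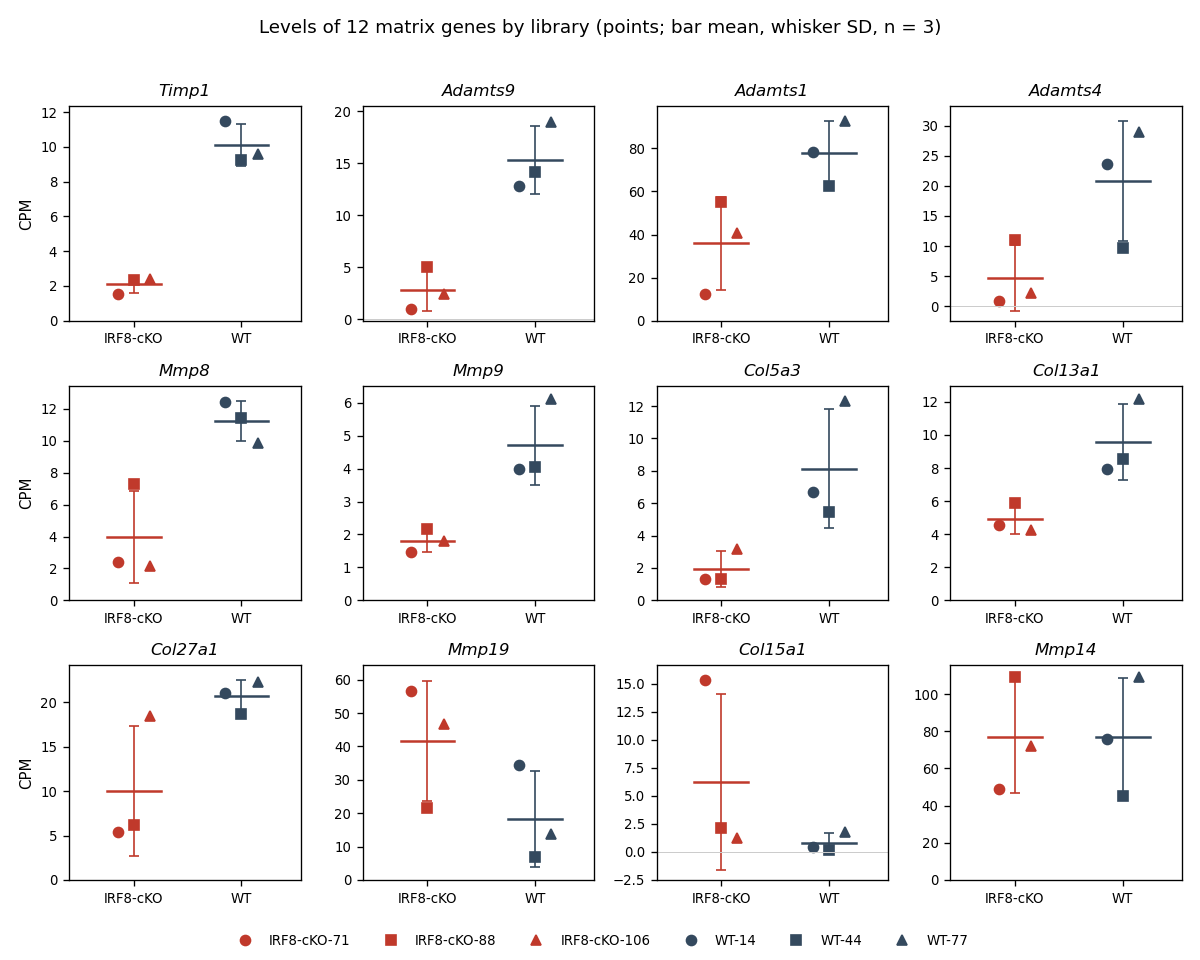
CPM (vertical axis, linear, 1 scale per panel) of 12 members in every library, IRF8-cKO left and WT right, with the mean as a bar and the SD as a whisker (n = 3 each). Timp1, Adamts9, Adamts1, Mmp8, Mmp9, Col5a3, Col13a1 and Col27a1 do not overlap between groups, while Adamts4, Mmp19, Col15a1 and Mmp14 do.

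Of 15 secreted MMPs 7 were tested, 0 passed and 5 had negative log2 fold changes. Mmp8, neutrophil collagenase, stood at 2.40, 7.27 and 2.17 CPM in IRF8-cKO, against 12.4, 11.4 and 9.89 CPM in WT (log2 fold change -1.51, SE 0.48, adjusted p = 0.110). IRF8-cKO-88 was the highest of its group, and without it Mmp8 was at -2.29 (adjusted p = 0.00952). Mmp9, the gelatinase that neutrophils and macrophages release, stood at 1.48, 2.16 and 1.80 CPM in IRF8-cKO, against 3.98, 4.05 and 6.10 CPM in WT (log2 fold change -1.38, SE 0.41, adjusted p = 0.0955). Neither overlapped between the groups, and neither passed in edgeR, while DESeq2 called both lower (adjusted p = 0.0286 for Mmp8 and 0.0246 for Mmp9). Without a low-count filter edgeR called Mmp8 (adjusted p = 0.0115) and not Mmp9. Both DESeq2 and that fit also called far more genes over all. Among the tested neutrophil markers, 9 had negative log2 fold changes and 1 a positive one. Of 14 markers 10 were tested, 5 were called lower (S100a8, S100a9, Ltf, Retnlg and Ngp) and 0 higher. Over all genes tested, 0.937% were called lower. The 14 summed to 782 to 4650 CPM in IRF8-cKO and 1250 to 3550 CPM in WT, most of it Lcn2, which injured hepatocytes also make and which had a log2 fold change of 0.19 (SE 0.63) with overlapping groups. The other 13 summed to 23.4 to 59.8 CPM in IRF8-cKO and 195 to 261 CPM in WT. Ngp was at 0 in IRF8-cKO-71, and Camp in that library and in IRF8-cKO-88. Ly6g, Elane and Mpo, with few reads, were not tested. Ly6g had 2, 3 and 0 reads in IRF8-cKO, against 4, 4 and 7 reads in WT. Elane had 10, 0 and 2 reads in IRF8-cKO, against 0, 2 and 1 in WT. Mpo had 1, 0 and 1 reads in IRF8-cKO, against 0, 0 and 0 in WT. Blood markers were lower as well, with 8 of 8 tested erythroid and platelet markers negative. In 7 of them every IRF8-cKO library lay below WT, against 14.5% of all genes tested. Hba-a2, an alpha globin, was called lower (log2 fold change -1.74, adjusted p = 0.0495). The blood markers summed to 105 to 158 CPM in IRF8-cKO and 232 to 333 CPM in WT, and Gp1bb was at 0 in every library. The part of neutrophil or blood content in the Mmp8 and Mmp9 values was not tested.

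Mmp2, the gelatinase of stromal cells, stood at 0.739, 0.862 and 0.787 CPM in IRF8-cKO, against 2.57, 0.517 and 2.26 CPM in WT (log2 fold change -1.17, SE 0.61, adjusted p = 0.264). WT-44 lay below all IRF8-cKO libraries. Mmp3, stromelysin 1, was at -1.36 (SE 0.71), with 0.246 CPM in IRF8-cKO-71 at one end and 4.65 CPM in WT-14 at the other. Mmp7, matrilysin, known from injured epithelium such as bile ducts, was at -0.96 (SE 0.65). Cholangiocyte markers were lower in summed level too, at 148 to 258 CPM in IRF8-cKO and 465 to 952 CPM in WT, with 0 of 7 tested markers called, and their part in the Mmp7 value was not tested. Cldn4 was at 0 in IRF8-cKO-71. Spp1 carried most of this sum, with 116, 209 and 198 CPM in IRF8-cKO, against 853, 407 and 430 CPM in WT, and the other 9 markers summed to 32.6 to 49.5 CPM in IRF8-cKO and 57.7 to 123 CPM in WT. Krt19, a bile duct keratin, had the lowest p of the list (log2 fold change -3.47, adjusted p = 0.0551). Mmp12, macrophage elastase, stood at 0.924, 3.33 and 2.27 CPM in IRF8-cKO, against 3.92, 0.948 and 0.796 CPM in WT (log2 fold change 0.19, SE 0.70). Both the highest and the lowest Mmp12 value were in WT. Monocyte and macrophage markers, Spp1 among them, summed to 227 to 324 CPM in IRF8-cKO and 526 to 971 CPM in WT, with 0 of 10 called, 4 positive and 6 negative. Without Spp1, a choice made after its values were seen, the other 9 summed to 87.7 to 115 CPM in IRF8-cKO and 118 to 125 CPM in WT. Of the 10 monocyte and macrophage markers 4 had every IRF8-cKO library below WT and 1 had every one above. Over all genes tested, 14.5% lay below and 14.4% above in this way. The marker above was Adgre1, the F4/80 antigen (log2 fold change 1.76, adjusted p = 0.0797). Kupffer cell markers, those of resident liver macrophages, were positive in 8 of 8 tested, with a median log2 fold change of 0.97 and 0 called. In 3 of them every IRF8-cKO library lay above WT, against 14.4% of all genes tested. Cd5l had the lowest p of them (log2 fold change 1.37, adjusted p = 0.0784). The part of these cells in the Mmp9 and Mmp12 values was not tested.

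Mmp19, a secreted MMP active on basement membrane components, had the highest mean per length of the secreted MMPs, at 11.8 ± 5.12 RPKM in IRF8-cKO and 5.18 ± 4.07 RPKM in WT (SD, n = 3 each). Mmp8 exceeded it in WT-44 (4.69 RPKM for Mmp8 and 1.93 for Mmp19) and in WT-77 (4.08 and 3.87). In CPM Mmp19 stood at 56.5, 21.5 and 46.8 in IRF8-cKO, against 34.4, 6.81 and 13.7 in WT. WT-14 lay above IRF8-cKO-88, and the log2 fold change of 1.18 (SE 0.57, adjusted p = 0.241) did not pass. Opposite-strand exons of Tmem198b, with 92 reads, cover 22.3% of the Mmp19 exon bases. Mmp14, the membrane-bound MMP that activates MMP2, stood at 49.2, 109 and 72.3 CPM in IRF8-cKO, against 76.0, 45.3 and 109 CPM in WT. Its log2 fold change was 0.00 (SE 0.39), and its mean of 12.9 RPKM in each group was the highest of the MMPs. Mmp19 exceeded it in IRF8-cKO-71 (16.0 RPKM for Mmp19 and 8.26 for Mmp14) and in IRF8-cKO-106 (13.3 and 12.1). Mmp15, a second membrane-bound MMP, stood at 10.7, 6.16 and 21.2 CPM in IRF8-cKO, against 17.9, 20.7 and 20.6 CPM in WT (log2 fold change -0.64, SE 0.41). The WT libraries were close together in Mmp15, and IRF8-cKO-106 lay above them.

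The 9 Mmp genes on chromosome 9 lie within 427 kb (7272514 to 7699585, mm10), and 4 of them were tested: Mmp12, Mmp3, Mmp8 and Mmp7. Mmp27, 2911 bases from Mmp8, had 53 reads in all and was not tested. Mmp13, the main rodent interstitial collagenase, had 19 reads, Mmp10 had 10 reads, all in WT-14, and Mmp1b and Mmp20 had 0. The cluster's promoters are shown because 6 of the 7 member windows with the AP-1 letters TGACTCA, or TGAGTCA on the other strand, belong to it. The stretches run from -100 to 20 around each RefSeq start on the plus strand (GRCm38.p6): Mmp13 chr9:7272414-7272533, Mmp12 chr9:7347274-7347393, Mmp3 chr9:7445722-7445841, Mmp10 chr9:7502242-7502361, Mmp7 chr9:7691990-7692109 and, for contrast, Mmp8 chr9:7558329-7558448. Counted from the RefSeq start, TATAAA begins at -16 in Mmp13, 5 in Mmp12, -7 in Mmp3, -29 in Mmp10 and -26 in Mmp7. In Mmp8 the letters are on the other strand and begin at -3. Whether they act as a TATA box was not tested. Capitals mark the AP-1 letters and the TATA box letters (TATAAA, or TTTATA on the other strand):
Mmp13: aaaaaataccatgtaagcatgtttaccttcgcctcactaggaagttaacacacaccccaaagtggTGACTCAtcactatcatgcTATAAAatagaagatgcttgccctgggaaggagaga
Mmp12: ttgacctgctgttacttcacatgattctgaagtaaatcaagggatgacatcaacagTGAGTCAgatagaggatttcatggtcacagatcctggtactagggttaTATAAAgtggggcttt
Mmp3: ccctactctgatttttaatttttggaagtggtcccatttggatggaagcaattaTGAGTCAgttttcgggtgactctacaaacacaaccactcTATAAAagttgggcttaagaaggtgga
Mmp10: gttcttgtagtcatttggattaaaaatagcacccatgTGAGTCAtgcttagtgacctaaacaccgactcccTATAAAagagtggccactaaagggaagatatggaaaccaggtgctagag
Mmp7: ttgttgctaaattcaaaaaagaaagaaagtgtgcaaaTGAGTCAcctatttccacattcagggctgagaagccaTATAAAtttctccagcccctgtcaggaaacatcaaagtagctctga
Mmp8: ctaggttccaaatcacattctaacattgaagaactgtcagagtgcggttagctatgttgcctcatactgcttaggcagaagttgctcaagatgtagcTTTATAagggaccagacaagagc
The AP-1 letters occur in 7 of 72 member windows (9.72%) and in 5.20% of all windows. Mmp8 has none in its window, and Mmp1b, with 0 reads, has them. Of the 89 members 66 had a window in the RefSeq table, some with more than 1 start. A match of letters is a description and shows no binding.

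**Figure D4:**
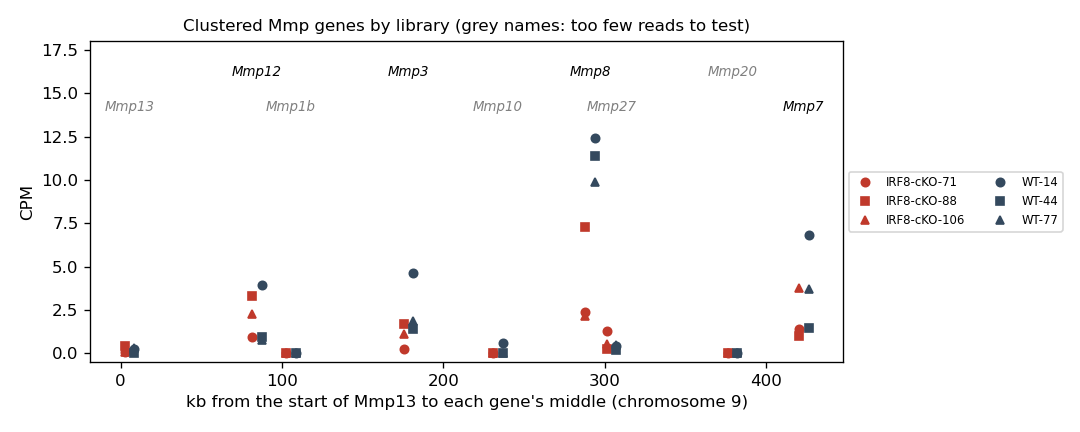
CPM (vertical axis) of the 9 clustered Mmp genes in every library against distance from the start of Mmp13 in kb (horizontal axis), with IRF8-cKO in red left of WT in dark blue. Of the 4 tested genes Mmp8 is the one whose groups separate, and the 5 genes named in grey had too few reads to be tested.

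Fibrillar collagens, the fibre-forming chains, gave 8 tested members of 11, with 0 called and a median log2 fold change of -0.19. Col3a1 stood at 7.14, 10 and 19.3 CPM in IRF8-cKO, against 18.6, 10 and 12.2 CPM in WT (log2 fold change -0.16, SE 0.41). Col1a2 stood at 6.84, 8.99 and 10.3 CPM in IRF8-cKO, against 10.1, 8.62 and 11.5 CPM in WT (log2 fold change -0.21, SE 0.31). Its partner in type I collagen, Col1a1, stood at 2.96, 3.02 and 7.31 CPM in IRF8-cKO, against 3.67, 0.948 and 4.84 CPM in WT (log2 fold change 0.48, SE 0.60). The groups overlapped in all 3, and IRF8-cKO-106 was the highest IRF8-cKO library in each. Per length, Col1a2 over Col1a1 was 1.22, 1.57 and 0.742 in IRF8-cKO, against 1.45, 4.80 and 1.25 in WT, with WT-44 apart, where Col1a1 had 11 reads. Col5a2, a type V chain, was at 0.65 (SE 0.50), and Col5a1, another, at 0.63 (SE 0.49).

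Col5a3, the remaining type V chain, had a negative value. It stood at 1.29, 1.29 and 3.19 CPM in IRF8-cKO, against 6.67, 5.43 and 12.3 CPM in WT, without overlap (log2 fold change -2.07, SE 0.51, adjusted p = 0.0675). Col27a1, a fibrillar chain best known from cartilage, stood at 5.42, 6.22 and 18.5 CPM in IRF8-cKO, against 21.0, 18.7 and 22.3 CPM in WT (log2 fold change -1.04, SE 0.45, adjusted p = 0.197). The WT libraries were close together in Col27a1, and IRF8-cKO-106 was just below them. Col11a2 was at -0.72 (SE 0.54).

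Stellate cell and fibroblast markers overlapped between the groups in 15 of 15 tested, with 0 called. Over all genes tested, 9334 of 13134 overlapped in this way and 1.39% were called. The median log2 fold change of the markers was 0.06, with 10 positive and 5 negative. The markers summed to 296 to 475 CPM in IRF8-cKO and 354 to 551 CPM in WT. None of them had 0 reads in all libraries, and Acta2, an activation marker, was at 1.05, 2.59 and 3.19 CPM in IRF8-cKO, against 2.63, 0.948 and 3.19 CPM in WT. Lrat, an enzyme of retinoid storage, had the lowest p of the list (log2 fold change 1.86, adjusted p = 0.0952).

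Basement membrane and network collagens held the most abundant members, with 5 of 12 tested and 0 called. Col18a1, the endostatin precursor that hepatocytes express, stood at 416, 225 and 233 CPM in IRF8-cKO, against 252, 395 and 441 CPM in WT (log2 fold change -0.32, SE 0.36). Per length it was at 41.5 ± 15.4 RPKM in IRF8-cKO and 51.7 ± 14.1 RPKM in WT (SD, n = 3 each), the highest of all 89 members. Col4a1 stood at 61.5, 120 and 94.1 CPM in IRF8-cKO, against 134, 67.2 and 95.7 CPM in WT (log2 fold change -0.11, SE 0.35). Col4a2, its partner, which starts at the same place on the opposite strand, stood at 19.3, 32.0 and 34.4 CPM in IRF8-cKO, against 62.0, 30.8 and 38.1 CPM in WT (log2 fold change -0.61, SE 0.34). Per length, Col4a1 over Col4a2 was 2.82, 3.33 and 2.43 in IRF8-cKO, against 1.92, 1.94 and 2.23 in WT, without overlap and without a test. The 2 genes share 22 exon bases, a small part of either.

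Col15a1, a multiplexin of the basement membrane zone, had the largest positive value of the members (2.92 on the log2 scale, SE 1.10; adjusted p = 0.161). Its CPM values were 15.3, 2.09 and 1.25 in IRF8-cKO, against 0.428, 0.172 and 1.79 in WT. IRF8-cKO-71 held 249 reads, more than the other 5 libraries together, and without it the log2 fold change was 1.04 (adjusted p = 0.460). Sinusoidal endothelial markers were mixed, with 8 positive and 4 negative log2 fold changes, a median of 0.21 and 0 of 12 called. Tek, an angiopoietin receptor, had the lowest p (log2 fold change 1.62, adjusted p = 0.0606). The 12 markers summed to 186 to 263 CPM in IRF8-cKO and 198 to 289 CPM in WT.

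The beaded-filament collagens of type VI gave 4 tested members of 6 and 0 calls. Col6a1 stood at 2.34, 3.02 and 4.44 CPM in IRF8-cKO, against 2.51, 1.81 and 6.37 CPM in WT (log2 fold change -0.13, SE 0.53). Col6a2 was at 0.10 (SE 0.43), Col6a3 at -0.46 (SE 0.54) and Col6a6, with few reads, at -1.14 (SE 0.62), whose groups did not overlap. Among fibril-associated collagens 4 of 9 were tested and 0 called. Col14a1, which binds to fibril surfaces, stood at 21.7, 33.4 and 24.3 CPM in IRF8-cKO, against 27.1, 26.5 and 38.2 CPM in WT (log2 fold change -0.21, SE 0.28). Col12a1 was at -0.40 (SE 0.41) and Col16a1 at -0.02 (SE 0.48). Col20a1 was at -1.80 (SE 0.83, adjusted p = 0.220), with 0.185, 2.77 and 0.648 CPM in IRF8-cKO, against 2.02, 6.98 and 3.58 CPM in WT. It shares 79 exon bases on the same strand with a gene of 369 reads, so its count is uncertain. Col13a1, a collagen anchored in the cell membrane, stood at 4.56, 5.91 and 4.26 CPM in IRF8-cKO, against 7.96, 8.54 and 12.2 CPM in WT, without overlap (log2 fold change -0.96, SE 0.34, adjusted p = 0.138).

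**Figure D5:**
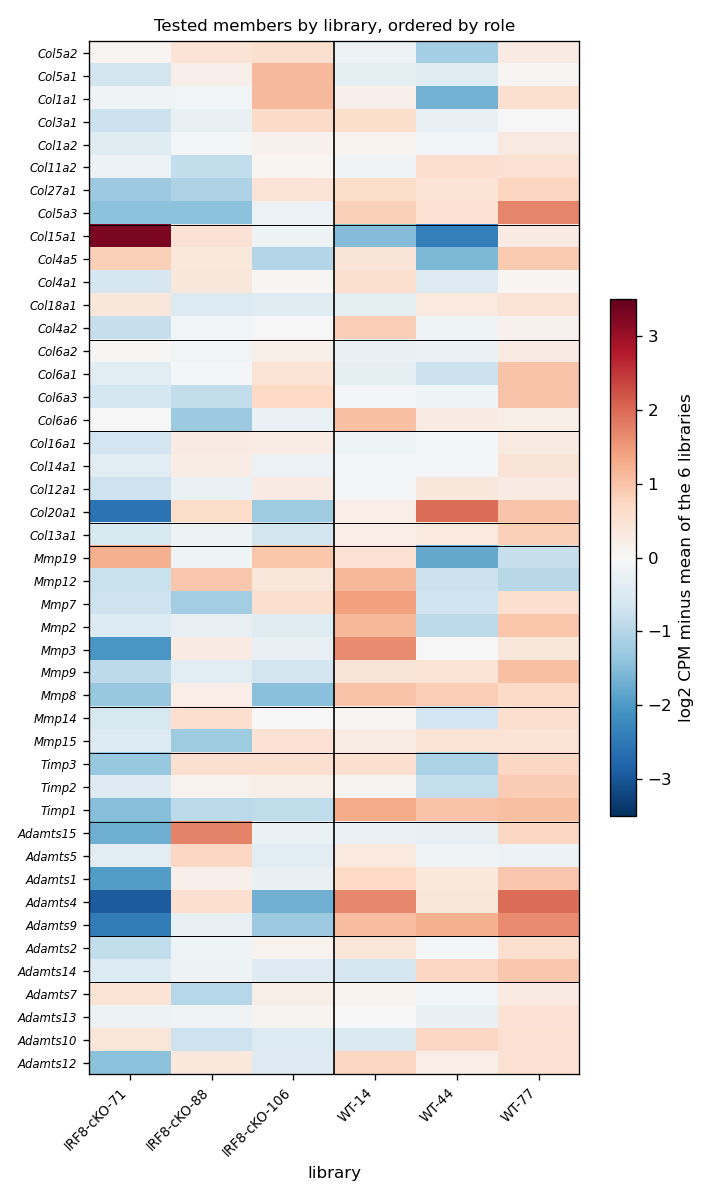
Log2 CPM minus the mean of the 6 libraries (colour) for the 45 tested members (rows, grouped by role) in each library (columns, IRF8-cKO left of the line and WT right). IRF8-cKO-71 is the bluest column, lowest in 21 of 45 rows, and WT-77 is highest in 21 of 45.

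Libraries differed within the groups as well. IRF8-cKO-71 was the lowest of the 6 libraries in 21 of the 45 tested members and WT-77 the highest in 21. The median deviation of the members from the 6-library mean was -0.58, -0.10 and 0.02 on the log2 scale in IRF8-cKO, against 0.27, -0.09 and 0.55 in WT. WT-44 was thus within the range of the IRF8-cKO libraries. The same medians over all genes tested lay between -0.01 and 0.02.

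The 44 members that were not tested had 0 to 53 reads over the 6 libraries, led by Mmp27 with 53, Col25a1 with 49 and Col8a1 with 48. Col25a1, a membrane-anchored collagen, had 1, 2 and 3 reads in IRF8-cKO, against 10, 9 and 24 reads in WT. Col9a3 had 0, 7 and 1 reads in IRF8-cKO, against 12, 13 and 5 reads in WT. Col25a1 was called lower when the low-count filter was dropped, and Col9a3 when IRF8-cKO-88 was left out.

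Of the genes that act around these members, those that regulate matrix genes gave 4 calls among 23 tested, all lower. Over all genes tested, 0.937% were called lower. The median log2 fold change of the regulators was -0.89. Fos stood at 1.79, 8.19 and 5.74 CPM in IRF8-cKO, against 44.1, 43.8 and 85.7 CPM in WT (log2 fold change -3.46, SE 0.54, edgeR adjusted p = 0.0339). Tgfb2, a TGF-beta ligand, stood at 0.308, 1.6 and 1.11 CPM in IRF8-cKO, against 6.37, 8.28 and 7.37 CPM in WT (log2 fold change -2.85, SE 0.54, adjusted p = 0.0446). Another Fos family gene, Fosb, fell too (log2 fold change -4.92). Jund, a partner of Fos proteins, stood at 42.8, 44.7 and 43.8 CPM in IRF8-cKO, against 82.7, 166 and 181 CPM in WT (log2 fold change -1.71, SE 0.33, adjusted p = 0.0446). Without IRF8-cKO-106, WT-44 or WT-77, 0 of the 92 genes of these pathway lists were called lower by edgeR, while 21, 22 and 18 had an unadjusted p under 0.05, and DESeq2 called 12 with all libraries. Whether the AP-1 genes bear on Timp1 was not tested. In the list of collagen folding, crosslinking and processing enzymes 0 of 21 tested passed, with a median of -0.16, and Crtap, a partner of prolyl 3-hydroxylase, had the lowest p (adjusted p = 0.179).

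Other matrix proteins gave 0 calls among 27 tested, with a median of -0.31 and 18 negative values. Every IRF8-cKO library lay below WT in 5 of the 27 genes, against 14.5% of all genes tested. Every one lay above WT in 2 of the 27, against 14.4% of all genes tested. Spp1, osteopontin, had the lowest p (log2 fold change -1.70, SE 0.39, adjusted p = 0.0606). Thbs1, thrombospondin 1, was at -2.54 (SE 0.83, adjusted p = 0.125) and Vcan, versican, at -2.08 (SE 0.68, adjusted p = 0.123), both without overlap. In the other direction, Fn1, fibronectin, stood at 3290, 1950 and 975 CPM in IRF8-cKO, against 750, 722 and 774 CPM in WT, every IRF8-cKO library above every WT library (log2 fold change 1.47, SE 0.43, adjusted p = 0.0943). The plasminogen system and other controls of matrix proteolysis gave 0 calls among 21 tested, with a median of -0.19. Plaur, the receptor that holds urokinase at the cell surface, stood at 2.65, 13.1 and 6.52 CPM in IRF8-cKO, against 28.8, 47.6 and 59.1 CPM in WT (log2 fold change -2.60, SE 0.53, adjusted p = 0.0513).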

How the data were processed

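Bulk RNA from 6 ischemic liver lobes was sequenced. Trizol extraction and an NEBNext Ultra kit are named per the labels' protocols. The authors deposited raw read counts per gene, which they did not normalise. Build mm10, featureCounts 1.5.0-p3 and HISAT2 2.0.5 are listed in the submitters' processing notes. No source used here gives the strand setting or the handling of multiply mapped reads. Gene lengths, an other unit in bases per the file headers, gave RPKM.

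Counts were scaled by TMM factors (0.786 to 1.32) and kept by filterByExpr (minimum count 10, minimum total 15), which left 13134 of 24095 genes with a read. IRF8-cKO was compared with WT in edgeR 4.0.16 (R 4.3.3) by a robust two-sided quasi-likelihood test, with group as its sole term, and p-values were Benjamini-Hochberg adjusted over every tested gene and called under 0.05. The SE is the absolute log2 fold change over the root of F. The fit was also run on counts simulated from its own means and dispersions, which cannot show how stable the calls in these libraries are. Every pair of replicates differed by more than counting noise (chi-square over its degrees of freedom at least 69.9). Alternatives used DESeq2 1.42.0, limma 3.58.1 (voom), other scalings and filters, a lowess length correction (span 0.5) and each library left out. Exon overlaps came from GENCODE M21, whose coordinates matched those of 88 of 89 members, and promoters from RefSeq (GRCm38.p6).

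The members and lists were chosen with earlier results of these data known. Named are, per role, called members, up to 4 of lowest p, the most abundant, and a fixed set including all TIMPs. In the pathway and marker lists printed, called genes, or else that of lowest p, are named. Col5a1, Mmp7, Adamts5, Fn1, Vcan, Thbs1, Acta2, Adgre1, Lcn2 and untested genes with few reads were chosen after their values were seen. Profile correlations are not given, since the 6 libraries form 2 groups. Some single-gene values of the overlap and marker lists are not reported here.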

Additional observations from a re-analysis of the deposited data

How the results depend on the processing

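No paired analysis was possible because no replicate number occurs in both groups. Members called lower in IRF8-cKO numbered 1 in the edgeR test and 2 with upper-quartile factors, 0 with library totals alone (7 of 45 at an unadjusted p under 0.05), 7 without a low-count filter (Adamts1, Adamts9, Col20a1, Col25a1, Col5a3, Mmp8 and Timp1), 6 in DESeq2 (Adamts4, Adamts9, Col5a3, Mmp8, Mmp9 and Timp1), 2 in limma-voom, 0 with the gene length correction (11 of 45 at an unadjusted p under 0.05), and 0 to 6 with 1 library left out (leaving out IRF8-cKO-88 gave 6 and IRF8-cKO-71 gave 2, with 0 without IRF8-cKO-106 or any 1 WT library, where 6 to 10 had an unadjusted p under 0.05). Members called higher numbered 2 without a filter (Col15a1 and Mmp19) and 1 in DESeq2 (Col15a1). The fit without a filter tested 79 members and 24095 genes, against 45 and 13134 in the main edgeR test. Over all genes, calls higher and lower were 59 and 123 in the main edgeR test and 39 and 43 with library totals. They were 817 and 906 without a filter, 613 and 810 in DESeq2, and 21 and 55 with the length correction, and 23 higher in limma-voom. Calls in DESeq2 and without a filter thus rose over all genes and not among members alone. With 1 library left out they ranged from 0 to 575 higher and 0 to 630 lower, with 0 without WT-77, where 1988 genes had an unadjusted p under 0.05. They were 575 and 630 without IRF8-cKO-88, 13 and 7 without IRF8-cKO-106, 32 and 107 without WT-14, and 1 and 0 without WT-44. Genes of the pathway lists called lower numbered 4, against 1 with library totals, 13 without a filter, 12 in DESeq2, 1 with the length correction and 0 to 11 with 1 library left out, and 1 was called higher without a filter and 1 in DESeq2. The cause was not tested.

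Of the named members' log2 fold changes under the alternatives, 547 kept direction and side of the threshold, 20 newly passed, 6 no longer passed and 40 reversed, none of the reversed called. Under library totals Col3a1 was at 0.10, Col1a2 at 0.03, Col4a1 at 0.08, Col6a1 at 0.13, Col14a1 at 0.00, Col16a1 at 0.24, Mmp14 at 0.19, Timp3 at 0.10, Adamts13 at 0.03 and Adamts7 at 0.12. Without a filter Col16a1 was at 0.01 and Mmp14 at 0.02, in limma-voom Col6a1 was at 0.03, Mmp14 at 0.01 and Adamts15 at -0.20, and with the length correction Col6a2 was at -0.02.
With 1 library left out, Col3a1 ranged from -0.65 to 0.13, Col4a1 from -0.35 to 0.18, Col6a1 from -0.45 to 0.59, Col16a1 from -0.17 to 0.26, Mmp14 from -0.34 to 0.33, Timp3 from -0.51 to 0.30, Mmp12 from -0.24 to 1.32, Adamts15 from -0.97 to 0.93, Adamts7 from -0.42 to 0.24, Col1a1 from -0.08 to 0.92, Col6a2 from 0.00 to 0.31, Col6a3 from -1.13 to 0.01, Timp2 from -0.56 to 0.28, Adamts13 from -0.36 to 0.06. Depth limits the 44 untested members, and 3 libraries a group limit all tests.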
